A study of Mus musculus with 8 samples.

Results

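The genes described here are 10 members of the TGF-beta pathway, namely the ligand genes *Tgfb1*, *Tgfb2*, *Tgfb3* and *Inhba*, the receptor genes *Tgfbr1*, *Tgfbr2* and *Tgfbr3*, and the Smad genes *Smad2*, *Smad3* and *Smad4*. They were chosen by name, with earlier results of these data known. Each matched 1 of the 23358 genes of the expression table, and all 10 were among the 14148 genes tested after a filter on low values. The RNA-seq compared the cervical loop of the mouse incisor, the end from which the tooth keeps growing, between *Med1* cKO mice and Ctrl mice at 4 weeks of age on a C57BL/6 background. In the cKO mice, Cre recombinase under the *Krt14* promoter, which is active in epithelia, removes the floxed exons 8 to 10 of *Med1*, a subunit of the Mediator complex, and the Ctrl mice were littermates without Cre. CLH, the head of the loop, holds the dental epithelial stem cells, and CLT, the tail, holds their progenies. Each of the 4 groups (Ctrl CLH, cKO CLH, Ctrl CLT, cKO CLT) had 2 libraries from tissue that the study took from 2 litters and pooled over mice. No label ties a library to a litter, so p-values measure the spread between these libraries only.

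TGF-beta ligands are secreted in a latent form and are released by proteases or by integrins. An active ligand binds TGFBR2, which recruits and phosphorylates TGFBR1. TGFBR1 then phosphorylates SMAD2 and SMAD3, which join SMAD4 and act on target genes in the nucleus. TGFBR3 (betaglycan) is a co-receptor that presents ligand, TGF-beta 2 above all. *Inhba* encodes the subunit of activin A, which signals through its own receptors to the same Smads. In the tooth, the pathway is known for exchange between epithelium and mesenchyme and for differentiation of ameloblasts and odontoblasts.

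The sequence just upstream of the start is shown for a ligand gene and a receptor gene that were called lower in cKO CLT (*Tgfb1*, *Tgfbr2*) and for *Tgfb2* and *Smad3*, which lay lower there without passing the test, so that genes with a like direction can be read side by side. This choice was made with their values in view. The RefSeq promoter table (GRCm38.p6) held 6 of the 10 members. *Tgfb3*, *Tgfbr3*, *Smad2* and *Smad4* had no entry. Each line gives the 250 bases before the start, 5′ to 3′ on the strand of the gene. Capitals mark every match, on either strand, to any of 5 motifs. The first was the letters TATAAA, known as the TATA box. The next was the CCAAT box, written as in its name. The GC box was searched as GGGCGG. The motif called E-box here was searched as CACGTG. The AP-1 site was searched as TGACTCA. No matches overlapped.
Tgfb1: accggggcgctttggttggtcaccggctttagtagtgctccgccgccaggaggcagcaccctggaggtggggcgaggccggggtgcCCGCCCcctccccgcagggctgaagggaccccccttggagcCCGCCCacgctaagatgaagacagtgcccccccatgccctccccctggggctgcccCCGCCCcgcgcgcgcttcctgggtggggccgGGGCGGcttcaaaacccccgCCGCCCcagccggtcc
Tgfb2: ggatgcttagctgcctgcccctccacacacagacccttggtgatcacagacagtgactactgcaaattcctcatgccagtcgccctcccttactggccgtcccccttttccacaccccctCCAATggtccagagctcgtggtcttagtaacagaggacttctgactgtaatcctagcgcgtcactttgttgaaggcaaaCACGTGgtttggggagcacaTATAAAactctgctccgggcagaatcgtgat
Tgfbr2: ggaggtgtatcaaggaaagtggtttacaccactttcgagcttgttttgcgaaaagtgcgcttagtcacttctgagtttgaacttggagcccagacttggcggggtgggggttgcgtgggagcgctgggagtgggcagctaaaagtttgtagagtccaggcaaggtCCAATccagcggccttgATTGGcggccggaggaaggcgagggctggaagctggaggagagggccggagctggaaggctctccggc
Smad3: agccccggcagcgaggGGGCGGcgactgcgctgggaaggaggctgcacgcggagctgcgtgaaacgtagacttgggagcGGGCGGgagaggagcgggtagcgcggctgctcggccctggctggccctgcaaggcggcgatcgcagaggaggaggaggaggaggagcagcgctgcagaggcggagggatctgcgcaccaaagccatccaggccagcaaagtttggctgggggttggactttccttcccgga
The *Tgfb1* stretch (chr7:25686752-25687001, plus strand) held 5 GC boxes and the *Smad3* stretch (chr9:63757995-63758244, minus strand) held 2. The *Tgfb2* stretch (chr1:186705990-186706239, minus strand) held 1 TATA box, 1 CCAAT box and 1 E-box. The *Tgfbr2* stretch (chr9:116175364-116175613, minus strand) held 2 CCAAT boxes. The AP-1 motif was in none of these 4 windows. Over all 32851 promoter windows of this length, 12.4% held the TATA box, 33.8% the CCAAT box, 32.7% the GC box, 6.02% the E-box and 4.46% the AP-1 site. The GC content was 75.2% for *Tgfb1*, 69.2% for *Smad3*, 58.4% for *Tgfbr2* and 53.6% for *Tgfb2*, against a median of 52.4% over all windows. No motif of the 5 was in all 4 windows. A match is only a run of letters and says nothing about a factor at work there.

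The deposited values are RPKM, reads on a gene scaled to its length in kilobases and to the total of the library. Libraries held about 26590000 to 34420000 reads. The members rested on 68 to 6479 reads per library, with *Inhba* lowest at 68 to 216. *Med1* did not check the labels: Ctrl CLH libraries gave an RPKM of 7.71 and 9.12, cKO CLH libraries 7.10 and 7.03, Ctrl CLT libraries 4.83 and 8.71, and cKO CLT libraries 9.15 and 8.96. Directions are therefore those of the libraries labelled cKO. The Ctrl CLT pair stood apart, with 34.6% of the 14148 genes differing more than 1.5-fold between its libraries on the log2(RPKM + 1) scale, against 0.763% to 1.12% in the other groups.

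Marker lists separated the CLT libraries as well. All 7 ameloblast markers were lower in both cKO CLT libraries than in both Ctrl CLT libraries, with a summed RPKM of 19.7 and 15.8 against 84584 and 37392. All 6 odontoblast and bone markers were lower too, with 3.01 and 2.86 against 1364 and 1567, and *Ibsp* (bone sialoprotein) had 0 reads in both cKO CLT libraries. The mesenchyme list summed to 338 and 353 against 660 and 1505, with 7 of 9 markers lower and 1 higher. The leukocyte list summed to 32.6 and 28.5 against 34.3 and 56.8, with 5 of 6 lower and 1 higher. The endothelial list summed to 58.2 and 57.6 against 60.1 and 95.3, with 2 of 6 lower and 1 higher. Over all genes tested, 35.1% lay wholly lower in cKO CLT and 37.2% wholly higher, so the endothelial count of lower markers was near that share. Higher in cKO CLT were all 7 hair markers (9952 and 10957 against 3347 and 11.4), all 5 cornified epidermis markers (1059 and 1058 against 369 and 4.02), all 6 skeletal muscle markers (1926 and 2119 against 693 and 51.7), all 6 melanocyte markers (414 and 414 against 134 and 10.3) and all 6 basal epithelium markers (2059 and 2317 against 1479 and 840). The library Ctrl CLT 1 thus held 32.0% to 34.9% of the mean cKO CLT level of the hair, cornified epidermis, muscle and melanocyte lists, and Ctrl CLT 2 held 0.110% to 2.55%. The labels give dental epithelial cells for all libraries, whereas the mesenchyme and the odontoblast and bone lists were read in all CLH and Ctrl CLT libraries. In bulk tissue, fewer cells of a type and less RNA per cell cannot be told apart, and the part of these marker differences in the results below was not tested.

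**Figure D1:**
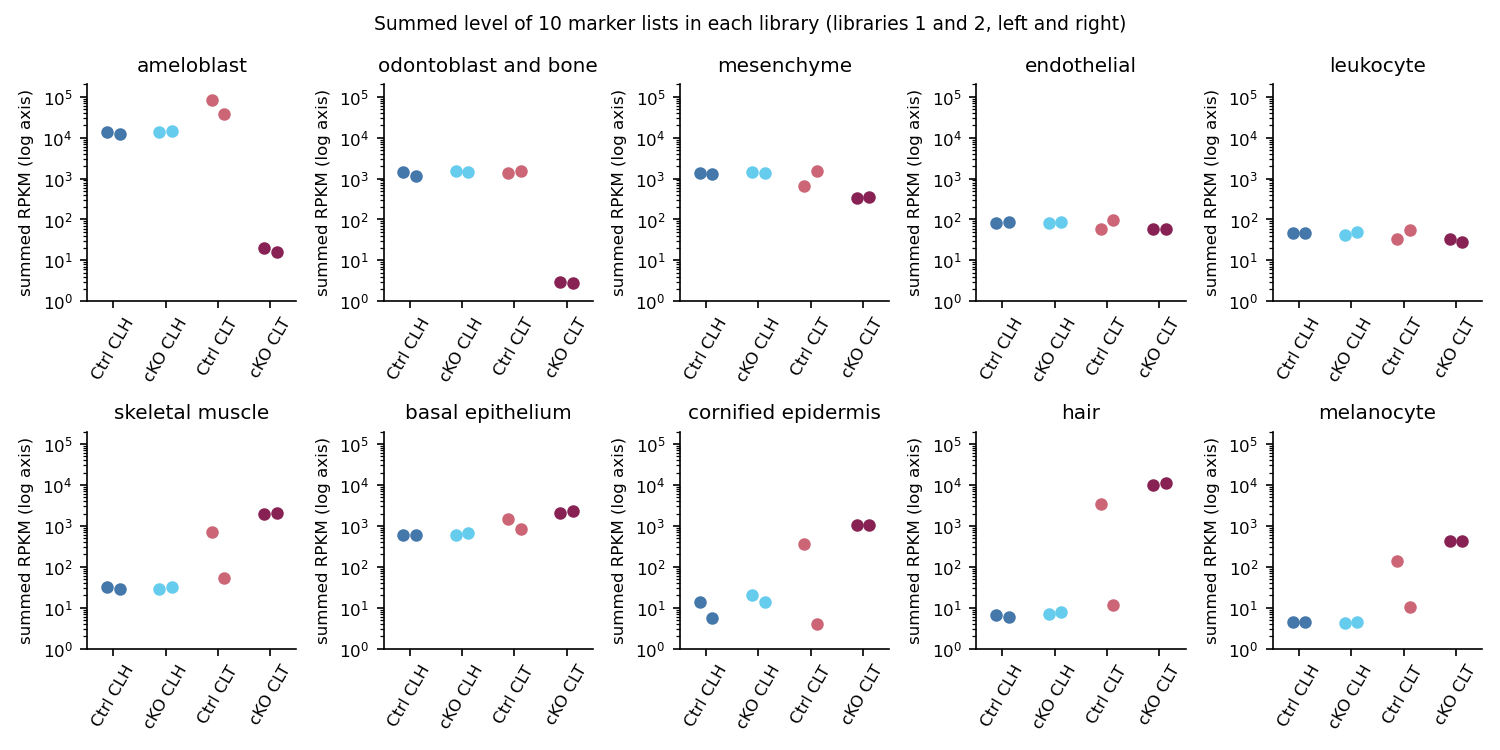
Summed RPKM of each of 10 marker lists (log axis) in the 8 libraries, with libraries 1 and 2 of each group side by side. Ameloblast and odontoblast lists are near the bottom in both cKO CLT libraries, and Ctrl CLT 1 lies between Ctrl CLT 2 and cKO CLT for the hair, cornified epidermis, muscle and melanocyte lists.

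The first question was how the pathway differed between cKO and Ctrl in CLT, where the progenies lie. All 4 ligand genes and the receptor gene *Tgfbr2* were read at lower level in both cKO CLT libraries than in both Ctrl CLT libraries, as were *Tgfbr1* and *Smad3*. *Tgfb1* and *Tgfbr2* fell past the threshold of the limma test, while *Tgfbr3* and *Smad4* lay higher without passing it and *Smad2* was level. In counts, 2 of the 10 members were called lower (adjusted p under 0.05 over all genes, limma) against 1.68% of all genes, and 0 were called higher against 0.0777%. At an unadjusted p under 0.05, 8 of 10 members passed against 36.2% of all genes. The cKO pair lay wholly below the Ctrl pair for 7 of 10 members against 35.1% of all genes, and wholly above it for 2 of 10 against 37.2%. The median log2 fold change was -1.06 over the members and -0.01 over all genes tested. Log2 fold changes here are differences of mean log2(RPKM + 1), which understate changes of low genes. With 2 against 2 libraries, an exact permutation test of a single gene cannot give a p under 0.333.

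*Tgfb1* (chr7:25687002-25704996, mm10) encodes TGF-beta 1, the ligand most widely made in adult tissues. The Ctrl CLT libraries gave 39.7 and 48.9 RPKM, and the cKO CLT libraries gave 7.44 and 7.49. The groups did not overlap, and the mean of 44.3 ± 6.46 (SD, n = 2) in Ctrl CLT was 5.93 times that of 7.47 ± 0.0351 (SD, n = 2) in cKO CLT. The log2 fold change was -2.41 (SE 0.17, adjusted p = 0.0307, limma). It was -2.56 when Ctrl CLT 1 was left out and -2.27 when Ctrl CLT 2 was, so the size of the difference did not turn on either Ctrl library. The call was lost without cKO CLT 1 (adjusted p = 0.267) or cKO CLT 2 (adjusted p = 0.267), when the spread rests on the Ctrl CLT pair, with no filter on low values (adjusted p = 0.0900) and in a voom fit of the recovered reads (adjusted p = 0.0606).

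*Tgfb2* (chr1:186623186-186705992) and *Tgfb3* (chr12:86056743-86079041) encode the other 2 TGF-betas, both known in tooth and craniofacial development. For *Tgfb2*, the Ctrl CLT libraries gave 10.8 and 31.7 RPKM and the cKO CLT libraries 3.19 and 3.19. For *Tgfb3*, the Ctrl CLT libraries gave 24.0 and 52.6 RPKM and the cKO CLT libraries 5.23 and 5.71. For both genes the cKO libraries were low and close together, and the Ctrl libraries lay far apart, with Ctrl CLT 1 the lower. The log2 fold change was -2.23 for *Tgfb2* (SE 0.54, adjusted p = 0.0860, limma) and -2.50 for *Tgfb3* (SE 0.41, adjusted p = 0.0637, limma). Neither passed the threshold. Without Ctrl CLT 1 the values were -2.97 and -3.05, and without Ctrl CLT 2 they were -1.50 and -1.95, smaller in size than the *Tgfb1* value of -2.27.

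*Inhba* (chr13:16014475-16027211), the activin A subunit, was the least abundant ligand gene. The Ctrl CLT libraries gave 2.84 and 5.31 RPKM, and the cKO CLT libraries gave 1.59 and 1.77, without overlap. The log2 fold change, -0.88, did not pass (SE 0.31, adjusted p = 0.130, limma), and it was -1.24 when Ctrl CLT 1 was left out and -0.52 when Ctrl CLT 2 was.

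Summed over *Tgfb1*, *Tgfb2* and *Tgfb3*, ligand RPKM was 74.6 and 133 in the Ctrl CLT libraries and 15.9 and 16.4 in the cKO CLT libraries, beside 116 and 116 in the Ctrl CLH libraries and 117 and 122 in those of cKO CLH. The cKO CLT libraries were thus the lowest of the 8. The make-up of the sum varied as well: *Tgfb3* was the largest share in every CLH library (37.9% to 44.3%) and in Ctrl CLT 2 (39.5%). *Tgfb1* was the largest share in Ctrl CLT 1 (53.3%) and in both cKO CLT libraries (46.9% and 45.7%).

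**Figure D2:**
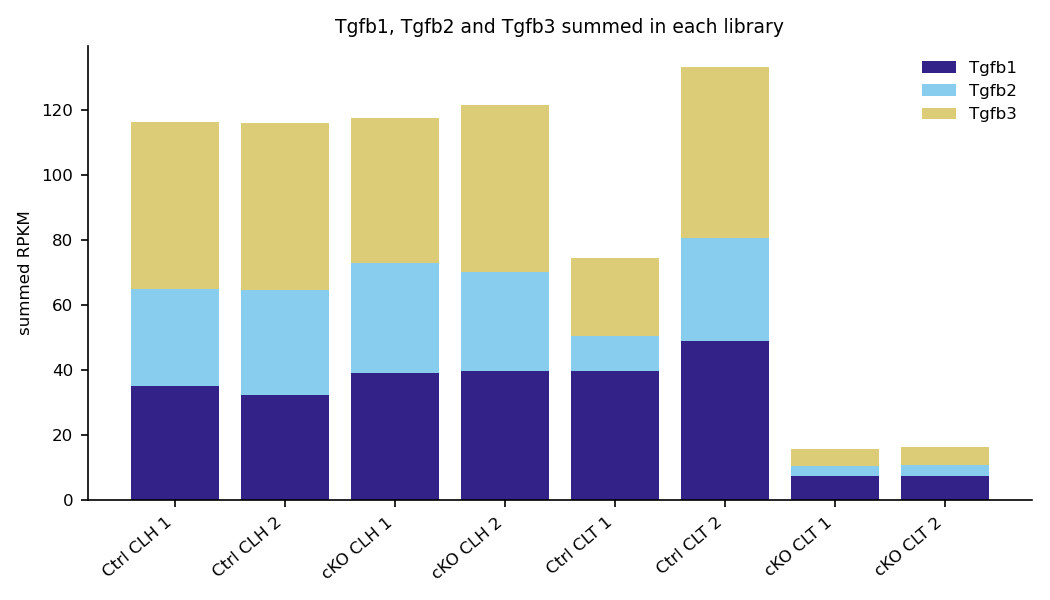
Summed RPKM of Tgfb1, Tgfb2 and Tgfb3 in each library, stacked by gene. The sum is 15.9 and 16.4 in the cKO CLT libraries and between 74.6 and 133 in the other 6, and the lowest of those 6 is Ctrl CLT 1.

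Among the receptors, *Tgfbr2* (chr9:116087695-116175363), the type II receptor that binds the ligand, stood at 37.7 and 38.9 RPKM in the Ctrl CLT libraries and at 15.02 and 14.7 in the cKO CLT libraries. Both pairs were tight, and the Ctrl mean was 2.58 times the cKO mean. The log2 fold change was -1.31 (SE 0.13, adjusted p = 0.0458, limma), with -1.33 when Ctrl CLT 1 was left out and -1.29 when Ctrl CLT 2 was. The call was lost without cKO CLT 1 (adjusted p = 0.441) or cKO CLT 2 (adjusted p = 0.462), with no filter on low values (adjusted p = 0.0900) and in the voom fit (adjusted p = 0.0669). *Tgfbr2* was the member for which Ctrl CLT 1 and Ctrl CLT 2 differed least, by 1.03 times.

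*Tgfbr1* (chr4:47353305-47414924), the type I receptor and kinase for the Smads, stood at 11.3 and 17.1 RPKM in the Ctrl CLT libraries and at 8.15 and 6.49 in the cKO CLT libraries. The groups did not overlap, but the log2 fold change, -0.85, did not pass (SE 0.27, adjusted p = 0.112, limma). It was -1.13 when Ctrl CLT 1 was left out and -0.57 when Ctrl CLT 2 was. *Tgfbr3* (chr5:107106570-107289595), the co-receptor, went the other way, with 4.39 and 3.92 RPKM in the Ctrl CLT libraries and 6.31 and 6.75 in the cKO CLT libraries. Its log2 fold change was 0.55 (SE 0.17, adjusted p = 0.111, limma), with 0.61 when Ctrl CLT 1 was left out and 0.48 when Ctrl CLT 2 was.

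Of the Smads, which carry the signal into the nucleus, *Smad3* (chr9:63646767-63757994) alone lay lower in cKO CLT. The Ctrl CLT libraries gave 19.3 and 30.0 RPKM and the cKO CLT libraries 9.49 and 9.83, and the log2 fold change was -1.24 (SE 0.26, adjusted p = 0.0758, limma). It did not pass, and it was -1.54 when Ctrl CLT 1 was left out and -0.93 when Ctrl CLT 2 was. *Smad2* (chr18:76241701-76311747), which is phosphorylated by the same receptor, had 8.95 and 9.51 RPKM in the Ctrl CLT libraries and 9.90 and 8.60 in the cKO CLT libraries. The groups overlapped, with a log2 fold change of 0.00 and a 95% confidence interval from -0.45 to 0.45. *Smad4* (chr18:73639013-73703741), the shared partner, had 17.7 and 22.5 RPKM in the Ctrl CLT libraries and 23.3 and 23.2 in the cKO CLT libraries. Both cKO libraries were higher, by 0.21 in log2 (95% confidence interval -0.28 to 0.69, adjusted p = 0.434, limma), which was 0.04 when Ctrl CLT 1 was left out and 0.37 when Ctrl CLT 2 was.

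**Figure D3:**
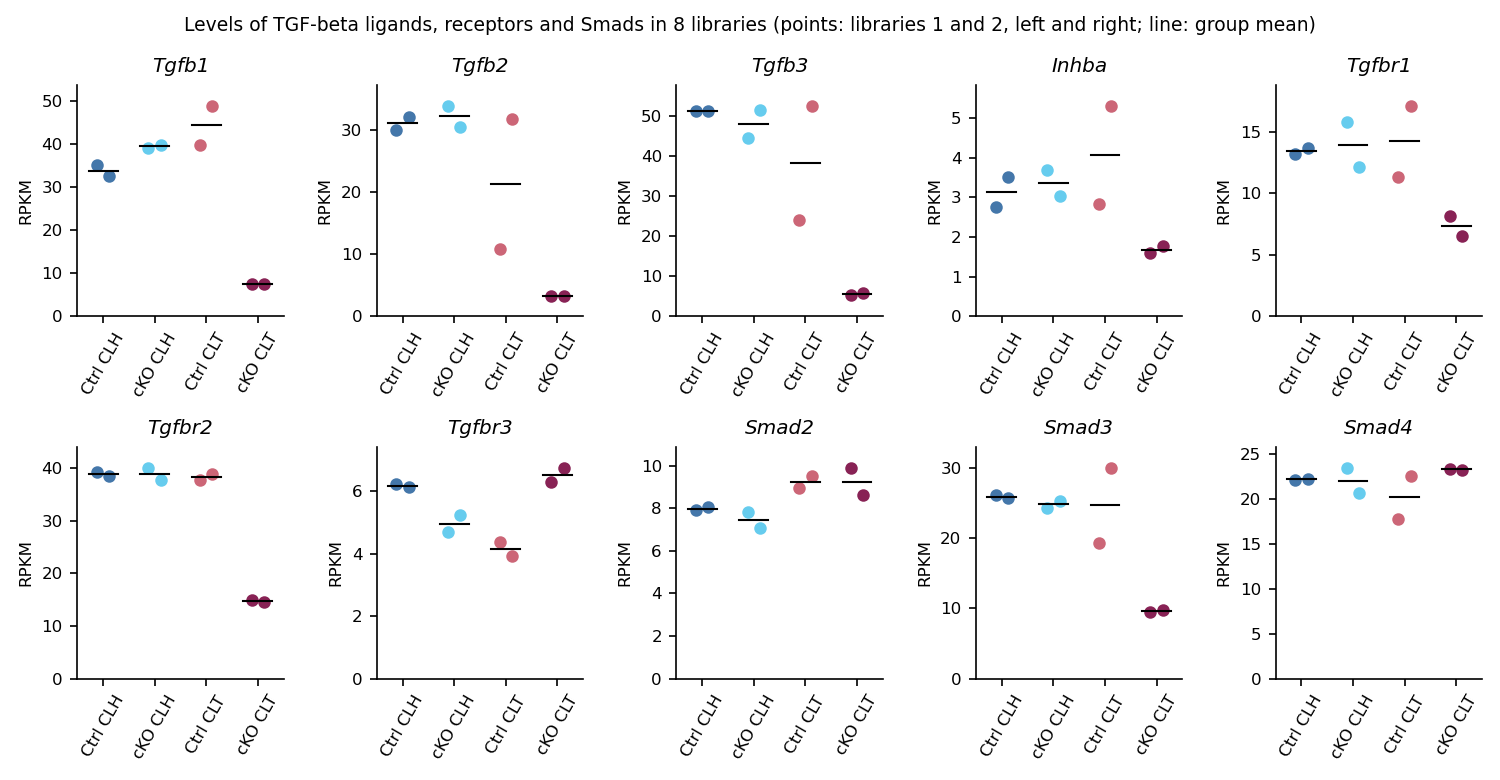
RPKM of each of the 10 members in the 8 libraries (points, libraries 1 and 2 from left to right) with the group mean (line), each panel on its own axis from 0. Both cKO CLT libraries are the lowest of the 8 for the 4 ligand genes, Tgfbr1, Tgfbr2 and Smad3, and not for Tgfbr3, Smad2 or Smad4.

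The same contrast in CLH asked whether the pathway differed where the stem cells lie. No member was called in CLH (0 of 10 members and 0.0% of all genes, limma), and at an unadjusted p under 0.05 there were 2 of 10 members against 7.26% of all genes. The voom fit also called 0. The members' median log2 fold change was -0.01, as was the median over all genes. *Tgfb1* gave 35.0 and 32.5 RPKM in the Ctrl CLH libraries and 38.9 and 39.8 in the cKO CLH libraries, which differed by 0.22 in log2 (SE 0.06, adjusted p = 0.688, limma). *Tgfbr3* gave 6.23 and 6.13 RPKM in the Ctrl CLH libraries and 4.69 and 5.24 in the cKO CLH libraries, which differed by -0.27 in log2 (SE 0.10, adjusted p = 0.688, limma). These genes were the pair with an unadjusted p under 0.05, and for both the CLH difference had the opposite sign to that in CLT.

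The other 8 members lay close to 0 in CLH. *Tgfb2* gave 30.0 and 32.1 RPKM in the Ctrl CLH libraries and 33.9 and 30.5 in the cKO CLH libraries, *Tgfb3* was 51.2 and 51.3 against 44.5 and 51.3, and *Inhba* was 2.76 and 3.504 against 3.68 and 3.03, all with overlap. *Tgfbr1* gave 13.2 and 13.6 RPKM in the Ctrl CLH libraries and 15.8 and 12.1 in the cKO CLH libraries, and *Tgfbr2* was 39.2 and 38.4 against 40.1 and 37.8, again with overlap. Among the Smads, *Smad2* was 7.91 and 8.05 against 7.81 and 7.09 and *Smad3* was 26.1 and 25.7 against 24.3 and 25.3, both lower without overlap, and *Smad4* was 22.1 and 22.2 against 23.4 and 20.6. The log2 fold changes of these 8 ran from -0.10 (*Tgfb3*, 95% confidence interval -0.32 to 0.12) to 0.08 (*Inhba*, -0.29 to 0.45). For *Tgfbr2* the interval was -0.15 to 0.16. Groups did not overlap for 4 of 10 members against 38.7% of all genes.

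**Figure D4:**
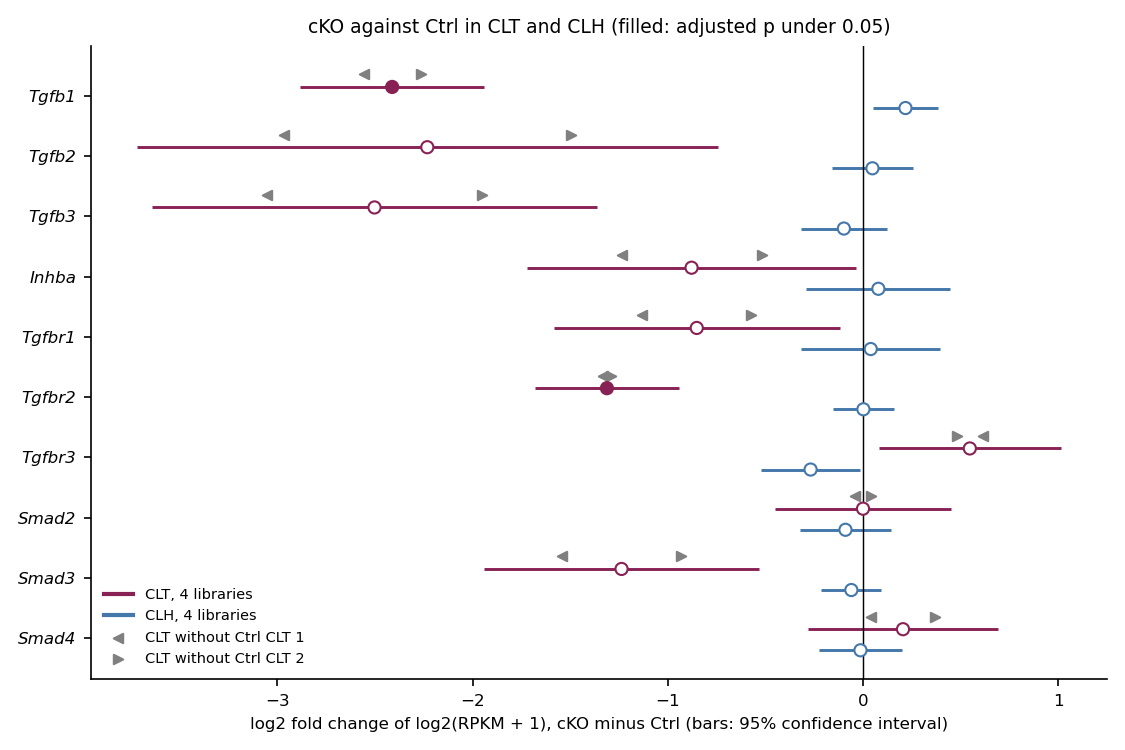
Log2 fold change of each member, cKO minus Ctrl, with its 95% confidence interval, in CLT and in CLH; filled points passed an adjusted p of 0.05, and triangles give the CLT value without Ctrl CLT 1 or without Ctrl CLT 2. Tgfb1 and Tgfbr2 in CLT are the filled points, at -2.41 and -1.31, and the CLH values lie between -0.27 and 0.22.

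An interaction term, fitted to the 8 libraries at once, asked whether the cKO difference itself was unlike in the 2 regions. The cKO difference was lower in CLT than in CLH for *Tgfb1* (-2.63, SE 0.17, adjusted p = 0.00108), *Tgfb3* (-2.40, SE 0.46, adjusted p = 0.0236), *Tgfb2* (-2.28, SE 0.61, adjusted p = 0.0498), *Tgfbr2* (-1.31, SE 0.12, adjusted p = 0.00315) and *Smad3* (-1.18, SE 0.27, adjusted p = 0.0362), all in log2 units from limma. It was higher in CLT for *Tgfbr3* (0.82, SE 0.17, adjusted p = 0.0287, limma). These were 5 of 10 members called lower against 9.58% of all genes, and 1 of 10 called higher against 8.05%. The fit assumed the same spread in all 4 groups of a gene, although over all genes the Ctrl CLT pair lay widest apart. *Tgfb2*, *Tgfb3*, *Smad3* and *Tgfbr3* passed here but not in CLT alone (adjusted p = 0.0860, 0.0637, 0.0758 and 0.111, limma). *Inhba* (-0.96, adjusted p = 0.108, limma), *Tgfbr1* (-0.89, adjusted p = 0.0953, limma), *Smad2* (0.09, 95% confidence interval -0.31 to 0.49) and *Smad4* (0.22, -0.24 to 0.67) did not pass. Leaving out any 1 CLH or cKO CLT library gave fewer members called lower and called higher, and fewer of all genes in both directions. The fall in calls was thus not particular to the members. Their median log2 difference of differences was then between -1.13 and -1.03, beside -1.07 with all 8 libraries. Leaving out Ctrl CLT 1 gave 7 lower, against 34.7% of all genes, and 1 higher, against 28.5%. Leaving out Ctrl CLT 2 gave 7 lower, against 20.1%, and 2 higher, against 26.6%. With the replicate block, which used the library number as a term, the calls of *Tgfb2* (adjusted p = 0.0657), *Smad3* (adjusted p = 0.0511) and *Tgfbr3* (adjusted p = 0.0565) were lost (limma). The *Tgfb2* call was also lost with no filter (adjusted p = 0.0666) and by voom (adjusted p = 0.0602).

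The step from stem cell tissue to progeny tissue was compared within each genotype. These comparisons share their libraries with those above and are no separate evidence. In Ctrl, 0 of 10 members were called between CLT and CLH (limma), against 0.00707% of all genes, and 1 of 10 had an unadjusted p under 0.05, against 13.1% of all genes. The groups did not overlap for 3 of 10 members, against 52.0% of all genes. *Tgfb1* (log2 fold change 0.38, SE 0.16) and *Smad2* (0.19, SE 0.14) were higher in both Ctrl CLT libraries, and *Tgfbr3* (-0.48, SE 0.16) was lower. The other 7 ran from -0.70 for *Tgfb2* to 0.26 for *Inhba*, all with overlap. The median over all genes was -0.13 here and 0.01 after median-of-ratios scaling, and under that scaling the members *Tgfbr2* (-0.02), *Smad3* (-0.10) and *Smad4* (-0.14) changed sign to 0.15, 0.07 and 0.03. Without Ctrl CLT 2, 5 members were called lower, against 34.9% of all genes, and 0 higher, against 18.4%. Without Ctrl CLT 1 none were called lower.

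In cKO, both pairs of libraries were tight and 7 of 10 members were called lower in CLT than in CLH, against 45.1% of all genes, and 2 of 10 were called higher, against 28.9%. After median-of-ratios scaling, the split of all genes called turned from 4084 higher and 6384 lower to 5270 higher and 4884 lower, and the median over all genes moved from -0.18 to 0.02. The members' median was -1.06, or -0.85 after that scaling. Largest were *Tgfb2* (-2.98, SE 0.10), *Tgfb3* (-2.92, SE 0.10) and *Tgfb1* (-2.25, SE 0.08), with adjusted p-values of 2.72e-08, 4.34e-08 and 6.47e-08 (limma). Mean RPKM in cKO CLH was 10.1, 8.77 and 5.27 times that in cKO CLT for these ligand genes. *Tgfbr2* (-1.33, SE 0.08), *Smad3* (-1.27, SE 0.09), *Tgfbr1* (-0.84, SE 0.14) and *Inhba* (-0.70, SE 0.12) fell as well, with adjusted p-values up to 0.000820 (limma). *Tgfbr3* (0.34, SE 0.10, adjusted p = 0.0166, limma) and *Smad2* (0.28, SE 0.11, adjusted p = 0.0423, limma) rose. Of 8 alternatives that kept all libraries of the comparison, *Tgfbr3* passed in 7 and *Smad2* in 5, and neither passed with all 8 libraries in 1 fit. With a library left out, the value ran from 0.27 to 0.40 for *Tgfbr3* and from 0.19 to 0.37 for *Smad2*. *Smad4* (0.08, 95% confidence interval -0.14 to 0.29) did not pass, and passed after median-of-ratios scaling (0.29, adjusted p = 0.0208, limma).

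Since RPKM is per length, levels can be ordered between genes within a group. In Ctrl CLH the order of mean RPKM was *Tgfb3* (51.2), *Tgfbr2* (38.8), *Tgfb1* (33.7), *Tgfb2* (31.0), *Smad3* (25.9), *Smad4* (22.2), *Tgfbr1* (13.4), *Smad2* (7.98), *Tgfbr3* (6.18) and *Inhba* (3.13), with no overlap between neighbours. The order in cKO CLH was the same except that *Tgfb1* (39.4) stood before *Tgfbr2* (38.9), and these neighbours overlapped. In Ctrl CLT the mean was 44.3 for *Tgfb1*, 38.3 for *Tgfbr2*, 38.3 for *Tgfb3*, 24.7 for *Smad3*, 21.3 for *Tgfb2* and 20.1 for *Smad4*, and from *Tgfbr2* on each neighbouring pair of these overlapped. The range of *Tgfb1* lay within that of *Tgfb3*, which was above *Tgfb1* in Ctrl CLT 2 and below it in Ctrl CLT 1, so their order was not settled. In cKO CLT, *Smad4* (23.2) stood first, followed by *Tgfbr2* (14.8), *Smad3* (9.66), *Smad2* (9.25), *Tgfb1* (7.47), *Tgfbr1* (7.32), *Tgfbr3* (6.53), *Tgfb3* (5.47), *Tgfb2* (3.19) and *Inhba* (1.68). There *Smad3* and *Smad2*, *Tgfb1* and *Tgfbr1*, and *Tgfbr1* and *Tgfbr3* overlapped.

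The members also differed in how alike their patterns were over the 8 libraries. Likeness was measured as the mean absolute difference of log2(RPKM + 1) after each gene was centred on its own mean, where 0 is an identical pattern. The closest members were *Tgfbr2* and *Smad3* (0.11), *Inhba* and *Tgfbr1* (0.12), and *Tgfb2* and *Tgfb3* (0.12). Over all genes tested, those most like *Tgfb3* were *Rhof* (0.04), *Prr16* (0.04) and *Usp11* (0.06). Those most like *Tgfb2* were *Fbxl7*, *Adamts3* and *Odz3* (0.07 to 0.08), and those most like *Tgfb1* were *Parvb* (0.05), *Mpzl1* (0.10) and *Dlg2* (0.11). The points share 8 libraries and the contrast of cKO CLT with the rest, so these values are a description.

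Around the members stand 5 lists of pathway genes, 63 in all, of which 59 were tested. In CLT, 1 of the 59 was called lower, against 1.68% of all genes, and 0 higher, against 0.0777% (limma). The cKO pair lay wholly below the Ctrl pair for 24, against 35.1% of all genes, and wholly above it for 16, against 37.2%. Their median log2 fold change was -0.16. Of the latency and activation genes, which store TGF-beta or release it, 8 of 12 tested had a negative log2 fold change, with a median of -0.41. The called gene was *Itgb6*, the integrin subunit that with *Itgav* activates latent TGF-beta. The Ctrl CLT libraries gave 11.6 and 13.4 RPKM and the cKO CLT libraries 2.35 and 2.57. Its log2 fold change was -1.96, with SE 0.17 and an adjusted p of 0.0397 (limma). Of the 14148 genes tested, the Ctrl CLT pair lay wholly above the Ctrl CLH pair for 2149 and wholly below it for 5212. Between these groups, 0 of 12 latency genes were called (limma). *Itgb6* lay above its Ctrl CLH values of 5.21 and 3.92 in both Ctrl CLT libraries. Its call was lost without cKO CLT 1 (adjusted p = 0.441) or cKO CLT 2 (adjusted p = 0.437), with no filter (adjusted p = 0.0907), by voom (adjusted p = 0.0613) and with the replicate numbers crossed (adjusted p = 0.0851).

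None of the other 4 lists had a called gene in CLT. Of 11 activin branch and co-receptor genes tested, 3 had an unadjusted p under 0.05 (limma), against 36.2% of all genes. These 11 had a median of 0.21, with 7 positive. Their extremes were the ligand genes *Gdf11* (-0.97, adjusted p = 0.199) and *Mstn* (1.11, adjusted p = 0.0640), with the endothelial receptor gene *Acvrl1* (-0.63, adjusted p = 0.249) and the activin receptor gene *Acvr1b* (1.05, adjusted p = 0.0922), all from limma. *Mstn*, which encodes myostatin and is made by skeletal muscle, stood at 0.892 and 0.645 RPKM in the Ctrl CLT libraries. In the cKO CLT libraries it stood at 2.85 and 2.76. The muscle marker sum was 693 and 51.7 in the same Ctrl CLT libraries and 1926 and 2119 in those of cKO CLT. Its part in the *Mstn* values was not tested. The inhibitors of the signal had a median of -0.12 over 12 tested. The Smad co-repressor gene *Skil* (-1.26) and the pseudoreceptor gene *Bambi* (-0.997) were lowest, both at an adjusted p of 0.0620 (limma), and the phosphatase gene *Ppm1a* (0.60, adjusted p = 0.0899, limma) and *Smurf2* (0.19, adjusted p = 0.505, limma) were highest.

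The partners of the Smads had a median of 0.21 over 7 tested. *Tgfb1i1* (-0.89, adjusted p = 0.0916) and *Trim33* (-0.26, adjusted p = 0.553) were lowest and *Zfyve9*, the anchor of SMAD2 and SMAD3 at endosomes (0.37, adjusted p = 0.195), and the coactivator gene *Crebbp* (0.36, adjusted p = 0.201) were highest (limma). Of 17 genes known to respond to TGF-beta, 14 had a negative log2 fold change in CLT, with a median of -0.58, and 0 were called. *Snai1*, a transcription factor of mesenchymal change, stood at 6.01 and 18.7 RPKM in the Ctrl CLT libraries and at 1.33 and 1.66 in the cKO CLT libraries. Its log2 fold change was -2.24, with SE 0.55 and an adjusted p of 0.0880 (limma). *Tgfbi*, a matrix protein gene named for its induction by TGF-beta, had 122 and 229 against 48.6 and 49.9 (-1.74, SE 0.34, adjusted p = 0.0731, limma). The opposite sign was seen for the collagen gene *Col3a1* (0.91, adjusted p = 0.0754, limma), so the response genes did not all lie on 1 side. The mesenchyme and bone marker sums above differ between the same libraries, and their part in these values was not tested.

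**Figure D5:**
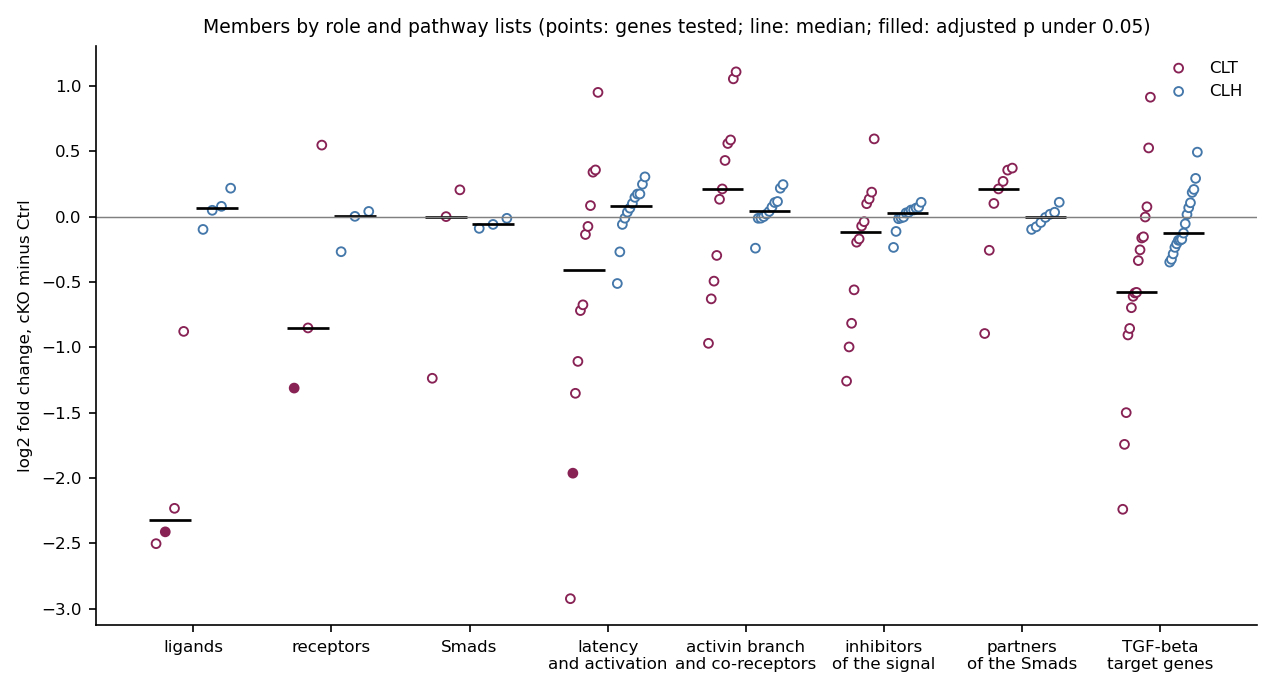
Log2 fold change, cKO minus Ctrl, of each tested gene in CLT and in CLH, for the members by role (ligands, receptors, Smads) and for 5 pathway lists, with list medians as lines and called genes filled. The ligand median in CLT is -2.32, the target gene median is -0.58, and all list medians in CLH lie between -0.13 and 0.08.

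In CLH, 0 of the 59 pathway genes were called (limma), and 6 had an unadjusted p under 0.05, against 7.26% of all genes. List medians there ran from -0.13 for the target genes to 0.08 for latency and activation, beside -0.01 over all genes. In the interaction test, 9 of the 59 were called lower in CLT, against 9.58% of all genes, and 3 higher, against 8.05%. Lower were *Fbn2* (-2.99), *Itgb6* (-2.11), *Itgav* (-1.34) and *Ltbp3* (-1.02) of the latency genes, *Skil* (-1.32) and *Bambi* (-0.99) of the inhibitors, and *Snai1* (-2.53), *Col1a1* (-1.99) and *Tgfbi* (-1.85) of the target genes. Higher were *Mstn* (1.0), *Ppm1a* (0.61) and *Col3a1* (0.85). Adjusted p-values of these 12 ran from 0.00632 (*Itgb6*) to 0.0491 (*Fbn2*, limma). The *Mstn* call (adjusted p = 0.0431) was lost in 4 of 6 alternatives that kept all libraries, with adjusted p-values up to 0.182 (voom). The calls of *Fbn2*, *Snai1* and *Ppm1a* were each lost in 2 of those 6, and that of *Col3a1* with the replicate block (adjusted p = 0.0511). In the comparison of CLT with CLH within cKO, which shares those libraries, 33 of the 59 were called lower, against 45.1% of all genes, and 13 higher, against 28.9% (limma). Of the 17 target genes, 12 were called lower and 3 higher. With median-of-ratios scaling, 34.5% of all genes were called lower in this comparison and 37.2% higher.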

How the data were processed

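RNA-seq libraries from CLH and CLT tissue of *Med1* cKO and Ctrl mice were used, 2 in each of 4 groups. Per the labels, the authors used Trim Galore 0.4.3.1, STAR 2.6.0b-1 on mm10, featureCounts 1.6.3 and DESeq2 2.11.40.2. They deposited RPKM values for 23358 genes with gene lengths. The annotation and the strand setting are not given in the sources used here, so values of overlapping or antisense genes are uncertain. No per-sample column was left out (0 columns).

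The product of RPKM and gene length came in whole steps within each library for 100.0% of 184553 values (tolerance 0.01). The size of the step gave the library totals and the reads. Of those totals, 82.2% to 85.6% lay on genes. The values are not counts, so log2(RPKM + 1) was tested with limma 3.58.1 (lmFit, eBayes with trend) in R 4.3.3. A gene entered if 2 or more libraries reached an RPKM of 1, with Benjamini-Hochberg adjustment over all of them and a threshold of 0.05. Each comparison of 2 groups used its own 4 libraries, and the interaction used all 8. The scripts were tested on simulated data with the same spread setting for every gene and group, so the wide Ctrl CLT pair was not modelled.

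All 10 members and *Med1* are named. In each pathway list, called genes are named, up to 5 per list and direction, and otherwise the 2 largest values of each sign. The values of 1 gene that this rule names are not reported here. Genes most alike are the closest 3 for the 3 members with the widest range of group means. The *Ibsp* and *Itgav* values in the text and the promoter choice were made after values were seen. The members and lists were chosen with earlier results of these data known. As alternatives, median-of-ratios scaling, pseudocounts of 0.1 and 0.5, no filter, all 8 libraries in 1 fit, a replicate block, voom on the recovered reads and leaving out each library were tried. The *Flg* marker matched no gene. The ChIP-seq data were not analysed here.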

Additional observations from a re-analysis of the deposited data

Results flagged for a closer look

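The results below were singled out because the cKO difference in CLT differed from that in CLH in the interaction test over all 8 libraries (limma, adjusted p under 0.05). Among the members, the log2 difference of differences was -2.63 for *Tgfb1*, -2.40 for *Tgfb3*, -2.28 for *Tgfb2*, -1.31 for *Tgfbr2*, -1.18 for *Smad3* and 0.82 for *Tgfbr3*. Of the latency and activation genes it was -2.99 for *Fbn2*, -2.11 for *Itgb6*, -1.34 for *Itgav* and -1.02 for *Ltbp3*. It was 1.0 for *Mstn*, -1.32 for *Skil*, -0.99 for *Bambi* and 0.61 for *Ppm1a*. Of the target genes it was -2.53 for *Snai1*, -1.99 for *Col1a1*, -1.85 for *Tgfbi* and 0.85 for *Col3a1*. With the library number as a block, the calls of *Tgfb2*, *Smad3*, *Tgfbr3*, *Fbn2*, *Mstn*, *Ppm1a* and *Col3a1* were lost, and *Mstn* passed in 2 of 6 alternatives that kept all libraries. In these tests, 9.58% of all genes were called lower and 8.05% higher. The fit assumed the same spread in all groups of a gene, although over all genes the Ctrl CLT pair lay widest apart. Of the genes above, *Tgfb1*, *Tgfbr2* and *Itgb6* alone were also called in CLT by itself (limma). The share of these values that moves with the marker lists and with Ctrl CLT 1 was not tested.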

How the results depend on the processing

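Over 88 results of single genes, 1110 values under alternatives kept direction and side of the threshold in 864, fell short of it in 137, newly passed it in 83 and changed sign in 26. In CLT, 248 genes were called, against 3 with no filter on low values, 6183 with all 8 libraries in 1 fit, 0 by voom (4900 at an unadjusted p under 0.05) and 11 to 9838 with a library left out. The members called lower there numbered 2, against 0 with no filter, 7 with all 8 libraries, 0 by voom and 0 to 7 with a library left out, and the members called higher numbered 0, against 1 with all 8 libraries and 0 to 2. In Ctrl CLT against CLH, 1 gene was called, against 2 with a pseudocount of 0.1, 2 with 0.5, 0 with no filter, 837 with all 8 libraries, 0 by voom (2067 at an unadjusted p under 0.05) and 0 to 7537 with a library left out, which gave 0 to 5 members lower. In cKO CLT against CLH, 10468 genes were called, against 10980 with no filter and 7660 with all 8 libraries. The members called higher there numbered 2, against 1 with no filter and 0 with all 8 libraries. With a library left out, fewer members were called higher and fewer genes were called. In the interaction, 2494 genes were called, against 198 to 8932 with a library left out, with 2 to 7 members lower and 0 to 2 higher. A left-out library leaves a group with 1 library, assumed to vary like the other groups, so without a Ctrl CLT library the spread of CLT rests on the tight cKO pair, and without a cKO CLT library it rests on the wide Ctrl CLT pair.

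With the replicate number as a replicate block, CLT gave 1744 genes and 5 members lower, Ctrl CLT against CLH gave 5 genes, and the interaction gave 1448 genes, 3 members lower and 0 higher. The labels do not say what the numbers share, so the numbers were not taken to pair the libraries. Correlations of same-numbered deviations ran from -0.19 to 0.31 over pairs of groups. They were highest between CLH and CLT of the same genotype, at 0.20 in Ctrl and 0.31 in cKO. Whether same-numbered libraries of a genotype share a source was not tested. A block with the numbers crossed, chosen after seeing the data, called 9 genes and 0 members lower in CLT, 2 genes in Ctrl CLT against CLH, and 1 member higher in cKO CLT against CLH.

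The values that changed sign were as follows. The log2 fold change of *Tgfbr2* in CLH was -0.014 by voom, and median-of-ratios scaling gave 0.15 for *Tgfbr2*, 0.069 for *Smad3* and 0.025 for *Smad4* in Ctrl CLT against CLH. With a library left out, CLT gave -0.091 to 0.092 for *Smad2* and -0.60 to 0.083 for *Trim33*. CLH gave -0.026 to 0.12 for *Tgfb2*, -0.20 to 0.0028 for *Tgfb3*, -0.052 to 0.21 for *Inhba*, -0.14 to 0.22 for *Tgfbr1*, -0.040 to 0.045 for *Tgfbr2* and -0.10 to 0.076 for *Smad4*. Ctrl CLT against CLH gave -1.44 to 0.032 for *Tgfb2*, -1.06 to 0.036 for *Tgfb3*, -0.099 to 0.62 for *Inhba*, -0.23 to 0.33 for *Tgfbr1*, -0.040 to 0.0014 for *Tgfbr2*, -0.40 to 0.21 for *Smad3*, -0.30 to 0.024 for *Smad4* and -0.69 to 0.048 for *Med1*. *Smad4* in cKO CLT against CLH was -0.011 to 0.17, and the interaction gave -0.0014 to 0.18 for *Smad2* and -0.55 to 0.13 for *Trim33*. The cause of these changes was not tested beyond the construction given.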

Other observations

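The target list held genes of several cell types with unlike levels. The cell cycle inhibitor gene *Cdkn2b*, which responds to TGF-beta in many epithelia, was low in CLH, with 1.46 and 1.26 RPKM in the Ctrl libraries and 1.08 and 0.996 in the cKO libraries. In CLT, the Ctrl libraries gave 9.79 and 18.1 and the cKO libraries 7.17 and 6.71. It was thus higher in all 4 CLT libraries than in all 4 CLH libraries, and the share of all genes with such a split was not counted. Its log2 fold change between cKO and Ctrl in CLT was -0.86 (SE 0.33, adjusted p = 0.150, limma), which did not pass. *Col1a1* was 1067 and 1335 RPKM in the Ctrl CLT libraries and 376 and 472 in the cKO CLT libraries, whereas *Col1a2* was 674 and 831 against 639 and 700, with overlap. The genes of this paragraph were chosen after their values were seen.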
